A study of Gallus gallus with 6 samples.

Results

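NRP1 and EDNRA are the chicken genes for a pair of cell surface receptors, neuropilin 1 and the endothelin receptor type A. Every region whose closest transcription start was assigned to either gene in the authors' tables was taken, which gave 12 distinct regions, 6 for each gene, of 10677 distinct regions in the series. Because some regions stood in more than 1 table, these 12 regions made 18 listings, of which 1 was in the ESC and PGC table, 9 in ESC against SSC and 8 in PGC against SSC. The genes were chosen by enrichment ratios measured in these same libraries, and their regions are listed because the authors' peak caller marked them, so the values below are descriptions.

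The study profiled histone H3 methylated at lysine 4 by chromatin immunoprecipitation and sequencing in 3 populations of chicken cells. Embryonic stem cells (ESC) came from blastoderms at stage X and were grown for 24 h with LIF, bFGF and SCF, then differentially purified. For primordial germ cells (PGC) the protocol names genital ridges of eggs incubated for 4.5 d, digested and differentially cultured for 40 minutes, while the stage label reads 72 h (stage 27). For spermatogonial stem cells (SSC) the protocol names testes at 18.5 d, digested and cultured with no purification step described, while the stage label reads 18 d. No cell sort is described for any population, so other cells of the blastoderm, ridge or testis may remain. No genotype, strain or added treatment is given for any group. The antibody recognises both dimethylated and trimethylated lysine 4, so the signal is H3K4 methylation of either degree. There was 1 immunoprecipitated (IP) library for each population, plus 1 input library of unselected DNA, with no replicates, so each comparison is between libraries and no p-value was computed.

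Neuropilin 1 is a co-receptor that binds secreted semaphorins together with plexins and binds vascular endothelial growth factor together with its receptor kinases. It is known from axon guidance and blood vessel growth. The endothelin receptor type A is a G protein-coupled receptor that drives contraction of vascular smooth muscle and patterns the neural crest of the jaw, and in the mammalian testis endothelin acts on peritubular myoid cells. Trimethylation of H3K4 marks the starts of active genes, while dimethylation extends farther into the gene and also marks enhancers.

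The library totals ran from 19.15 M reads in the SSC IP to 26.03 M in the ESC IP. Enrichment is the IP level over the input level of the same population, each as RPM, the reads scaled to the library total, after the authors added 1 read to every count. Every region that a table lists had enrichment above 1 in both of its populations, but a region could exceed 1 in both without being listed. Ratios are log2 values of one population's enrichment over the other's, with a 95% counting interval from the reads of the 4 libraries, and a region is counted as apart at 2-fold or more. Of the cell markers, DDX4 and DAZL of germ cells and NANOG, POU5F3 and SOX2 of pluripotent cells had no listed region in any table, which leaves the labelled identity of the cells unchecked at those genes. Of the other pluripotent cell genes, KLF5 was called in ESC, with log2 ratios of 3.29 (1.83 to 4.76) over PGC and 2.17 (0.67 to 3.67) over SSC at the same region, while KLF2 had -1.14 (-3.70 to 1.43) and LIN28B -0.30 (-2.96 to 2.37) for ESC over SSC. Of 13 somatic gonad genes, 7 were listed in ESC against SSC and all 7 were at least 2-fold higher in SSC, beside 22.8% of all 2593 genes and 65.2% of regions called only in SSC, as these 7 were.

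Both receptor genes carried a group of H3K4 methylated regions from just upstream of the start into the gene in SSC. NRP1 had 5 regions called in SSC and EDNRA had 6, while ESC had 2 calls, both over the NRP1 start and 1 inside the other, and PGC had 0 calls at either gene. Of all 5840 regions in ESC against SSC, 2238 were called only in SSC and 3205 only in ESC. Of all 4823 in PGC against SSC, 2527 were called only in SSC and 2279 only in PGC. At NRP1 (ENSGALG00000007140, chromosome 2, 13816140 to 13922505, plus strand, galGal4) the SSC regions ran from 466 bp upstream to 3069 bp downstream of the start, and they covered 2644 bp (74.8%) of that span. At EDNRA (ENSGALG00000010013, chromosome 4, 31349185 to 31378701, plus strand, galGal4) they ran from 563 bp upstream to 5041 bp downstream and covered 2312 bp (41.3%) of the span. The authors' annotation places the NRP1 regions over the start and in the first intron, and the EDNRA regions upstream of the start, from the 5' UTR into the first intron, and in the first and second introns.

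Across these SSC-called regions the SSC IP was denser than every other library, which was part of how they were chosen. The SSC IP held 3.25 to 5.01 RPM per kb at NRP1 and 3.54 to 4.61 at EDNRA. The ESC IP held 1.38 to 2.15 RPM per kb at the 4 NRP1 regions with an ESC value and 1.14 to 1.65 at the 5 EDNRA regions. The PGC IP held 0.851 to 2.37 RPM per kb at the 5 NRP1 regions and 1.06 to 1.45 at the 3 EDNRA regions with a PGC value. The ranges of the SSC IP and of the other IP libraries did not overlap at either gene, among regions that all carried an SSC call. How often this holds at other SSC-called regions was not computed. The inputs lay below the SSC IP everywhere, from 0.179 to 1.36 RPM per kb in SSC, from 0.274 to 1.58 in ESC and from 0.752 to 1.92 in PGC.

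**Figure D1:**
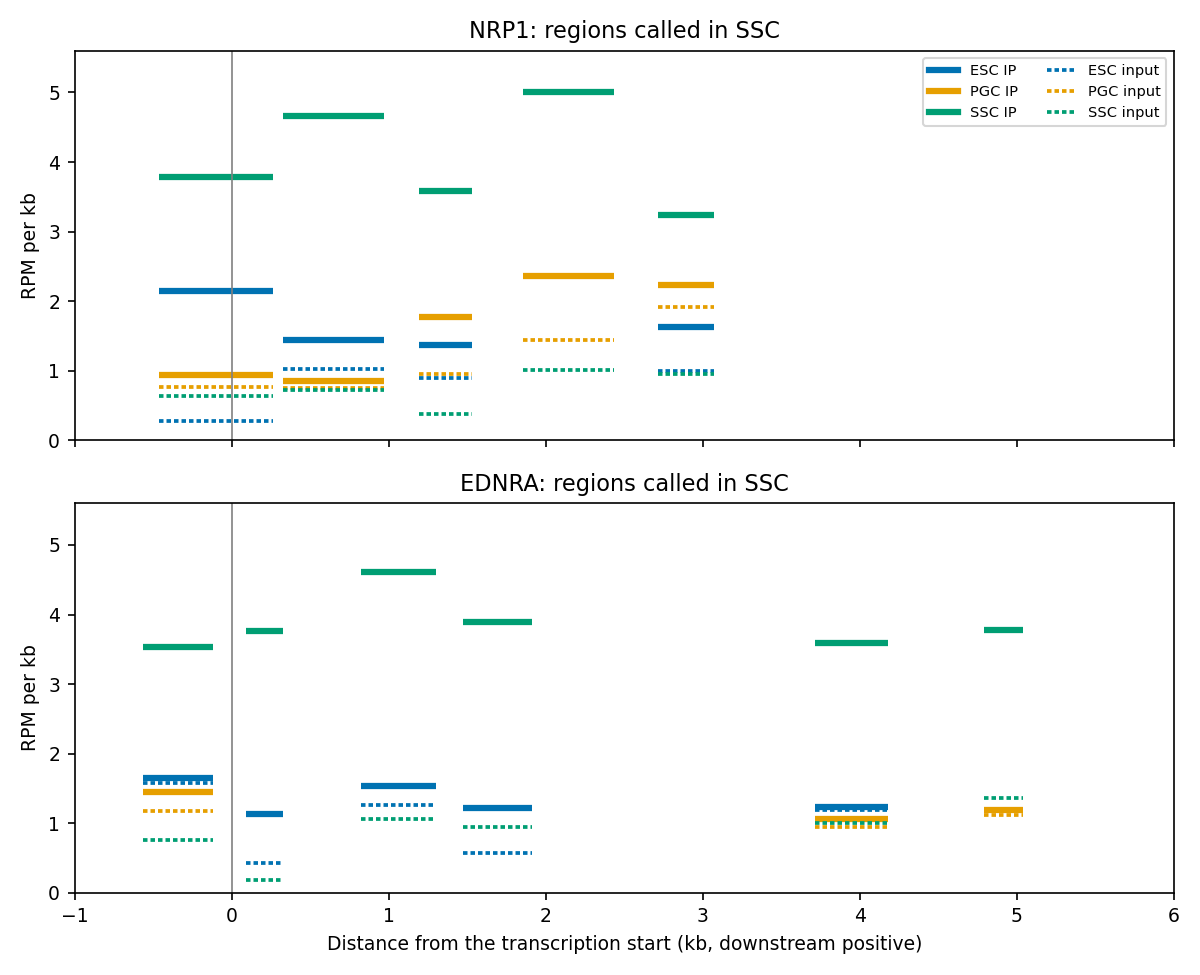
Level of each library (RPM per kb, with the authors' added read) at the regions called in SSC, by distance from the transcription start in kb, for NRP1 (top) and EDNRA (bottom); solid bars are IP libraries, dotted bars are inputs, and a bar's length is the region's width. The SSC IP bars lie from 3.25 to 5.01 RPM per kb at NRP1 and from 3.54 to 4.61 at EDNRA, above all other bars at the same region; a population has no bar where no table gives its value.

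The NRP1 start was the place where ESC and SSC shared a call. The region over it (chromosome 2, 13815674 to 13816406, 732 bp, from intergenic sequence into the first intron) held 40 IP reads in ESC, 13 in PGC and 52 in SSC, over 3, 13 and 10 input reads. Enrichment was 7.86 in ESC (95% counting interval 2.81 to 21.9), 1.23 in PGC (0.588 to 2.59) and 5.96 in SSC (3.11 to 11.4). ESC and SSC were thus both high and PGC was low. PGC calls near starts were few in general. In ESC against PGC, 3.90% of regions called only in PGC lay within 1 kb of a start, beside 65.4% of those called only in ESC. In PGC against SSC the shares were 3.33% for PGC and 18.5% for SSC. The log2 ratio of ESC over SSC was 0.40 (-1.35 to 2.15), a direction not detectable at this depth, and its sign depends on the processing, being -0.81 from the IP libraries alone and -0.12 with 5 reads added to each count. The ratio of PGC over SSC was -2.27 (-3.69 to -0.85), which is 4.83-fold higher in SSC. ESC against PGC does not list this wider region, but its counts give a ratio of ESC over PGC of 2.67 (0.84 to 4.50).

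In ESC against PGC, the single listed region of both genes was a narrower call inside that one (chromosome 2, 13816062 to 13816348, 286 bp, centred 65 bp downstream of the start in the 5' UTR). ESC had 19 IP reads over 1 input read and PGC had 7 over 7, and the ratio was 2.63 (0.11 to 5.16). Of all 4801 regions in that comparison, 48.4% were past 2-fold in favour of ESC, as were 83.5% of those called only in ESC. The narrow region took up 39.1% of the width of the wider one. It held 19 of the 40 ESC IP reads there, or 47.5% (exact Clopper-Pearson interval 31.5 to 63.9), and 7 of the 13 PGC IP reads. From the IP libraries alone the ratio was 0.96, just under 2-fold. It was 2.05 with inputs under 3 reads set to 3, and 1.31 with 5 reads added to each count. The ESC enrichment here rests on 1 input read. EDNRA had no listed region in ESC against PGC.

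Farther into NRP1, in the first intron, the listed regions were called in SSC and not in ESC or PGC. The region at 2145 bp has no ESC value. The region from 13816470 to 13817109, centred 649 bp downstream of the start, held 56 SSC IP reads over 10 input reads, against 23 over 12 for ESC and 10 over 11 for PGC. SSC had more IP reads than ESC and PGC together, while the input counts were alike. Its log2 ratios were -2.18 (-3.53 to -0.83) for ESC over SSC and -2.50 (-4.01 to -0.998) for PGC over SSC.

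The next region (13817335 to 13817670, 1362 bp downstream) held 22 SSC IP reads over 2 input reads, against 11 over 5 for ESC and 11 over 7 for PGC. It had the highest SSC enrichment of the NRP1 regions, 9.48 (2.85 to 31.6), on an input of 2 reads. Its ratios were -2.63 (-4.87 to -0.39) for ESC over SSC and -2.36 (-4.52 to -0.19) for PGC over SSC. They shrank to -1.38 and -1.02 from the IP libraries alone.

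The region at 2145 bp (13817993 to 13818577) is listed only in PGC against SSC, with 55 SSC IP reads over 13 input reads and 27 over 20 for PGC, and the ratio was -1.59 (-2.76 to -0.41). The farthest region, 2892 bp downstream (13818855 to 13819209), held 21 SSC IP reads over 7 input reads, against 14 over 6 for ESC and 15 over 16 for PGC. Its SSC enrichment of 3.40 (1.51 to 7.64) was the lowest at NRP1. The ratio of ESC over SSC was -1.05 (-2.79 to 0.69), just past 2-fold with an interval that includes no difference. The ratio of PGC over SSC was -1.55 (-3.08 to -0.02), and -0.54 without the inputs. The PGC input at this region, 1.92 RPM per kb, was the densest input value at either gene.

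At EDNRA the SSC signal began upstream of the start. The upstream region (chromosome 4, 31348622 to 31349065, 341 bp before the start, with no overlapping gene listed) held 29 SSC IP reads over 7 input reads, against 18 over 13 for ESC and 12 over 12 for PGC. Enrichment was 4.64 in SSC (2.13 to 10.1), 1.04 in ESC (0.522 to 2.07) and 1.23 in PGC (0.572 to 2.66). ESC and PGC were thus both near the level of their inputs. The log2 ratios were -2.16 (-3.66 to -0.65) for ESC over SSC and -1.91 (-3.49 to -0.33) for PGC over SSC.

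The region just inside the gene (31349274 to 31349510, 207 bp downstream of the start, from the 5' UTR into the first intron) held 16 SSC IP reads over 0 input reads, against 6 over 1 for ESC. The log2 ratio was -2.97 with the authors' added read and -1.97 with both inputs set to a floor of 3 reads. The interval of the first, -6.66 to 0.72, included no difference, and the depth does not show a direction.

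In the first intron, the region at 1064 bp (31350011 to 31350487) held 41 SSC IP reads over 11 input reads, against 18 over 11 for ESC, the highest SSC IP count at EDNRA, and the ratio was -1.83 (-3.23 to -0.44). The region at 1692 bp (31350656 to 31351099) held 32 over 9 for SSC and 13 over 4 for ESC. Its ratio of -0.93 (-2.72 to 0.87) was just under 2-fold, although the IP libraries alone gave -1.68. None of these 3 regions, at 207, 1064 and 1692 bp, is listed in PGC against SSC, and their PGC values are not analysed here.

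In the second intron, the region at 3950 bp (31352903 to 31353368) held 31 SSC IP reads over 10 input reads, against 14 over 10 for ESC and 9 over 10 for PGC. The log2 ratios were -1.78 (-3.28 to -0.29) for ESC over SSC and -1.68 (-3.26 to -0.10) for PGC over SSC. The last region, at 4916 bp (31353977 to 31354226), held 17 over 7 for SSC and 5 over 6 for PGC, with a ratio of -1.39 (-3.37 to 0.58). Its SSC enrichment of 2.78 (1.21 to 6.40) was the lowest of all member regions.

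**Figure D2:**
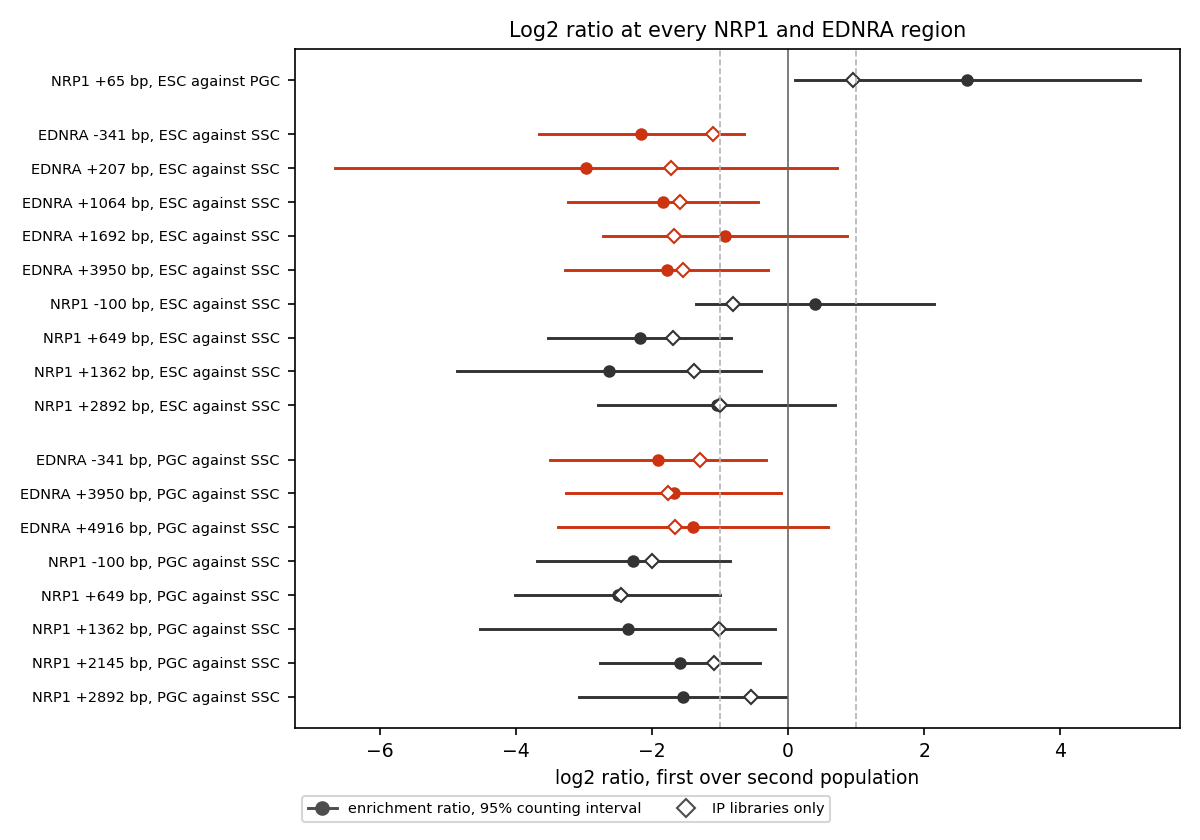
Log2 ratio of the first over the second population at all 18 listings of NRP1 (black) and EDNRA (red), named by distance from the start in bp; filled points are ratios of enrichment with 95% counting intervals, open diamonds use the IP libraries alone, and dashed lines mark 2-fold. All points against SSC lie below 0 except the NRP1 region over the start in ESC against SSC, at 0.40.

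In ESC against SSC, 7 of the 9 member regions were at least 2-fold higher in SSC, 3 of 4 at NRP1 and 4 of 5 at EDNRA, and 0 were at least 2-fold higher in ESC. Of all 5840 regions there, 26.3% were past 2-fold on the SSC side and 35.1% on the ESC side. Of the 9 members, 8 were called only in SSC, beside 2238 of all 5840 regions. The closer background is therefore the regions called only in SSC, of which 65.2% were at least 2-fold higher there, beside 7 of those 8 members. The median log2 ratio was -1.99 over those 8, and -1.27 over all regions called only in SSC. The interval excluded no difference at 5 of the 9 regions, 2 of NRP1 and 3 of EDNRA. Past 2-fold on the SSC side, it did so at 4.83% of all regions and 12.3% of those called only in SSC. These shares were not matched for read count. The 9 members held 16 to 56 SSC IP reads, beside a median of 15 over regions called only in SSC.

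In PGC against SSC, all 8 listings were called only in SSC, beside 2527 of all 4823 regions, and all 8 were at least 2-fold higher there. Of all 4823 regions, 37.8% were, and of those called only in SSC, 71.0%. The median log2 ratio was -1.80 over the 8 members, against -1.37 over all regions called only in SSC. The interval excluded no difference at 7 of the 8, beside 9.58% of all regions and 18.2% of those called only in SSC, past 2-fold on the SSC side. The exception was the EDNRA region at 4916 bp. These shares were not matched for read count, and an interval narrows with more reads. The 8 members held 17 to 56 SSC IP reads, beside a median of 15 over regions called only in SSC.

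The median log2 ratio of all regions was 0.90 in ESC against PGC, 0.31 in ESC against SSC and -0.42 in PGC against SSC. After it was subtracted, 8 of 9 members were at least 2-fold higher in SSC than in ESC, and 7 of 8 than in PGC, with the EDNRA region at 4916 bp at -0.98. The counts over all regions moved to 1374 higher in ESC and 1888 in PGC (from 2325 and 1126), to 1572 in ESC and 1904 in SSC (from 2051 and 1534), and to 1599 in PGC and 1225 in SSC (from 1023 and 1822). From the IP libraries alone they were 2390 in ESC and 1009 in SSC, and 1194 in PGC and 1016 in SSC. The IP libraries alone put 7 of 9 and 7 of 8 members at 2-fold or more in favour of SSC.

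**Figure D3:**
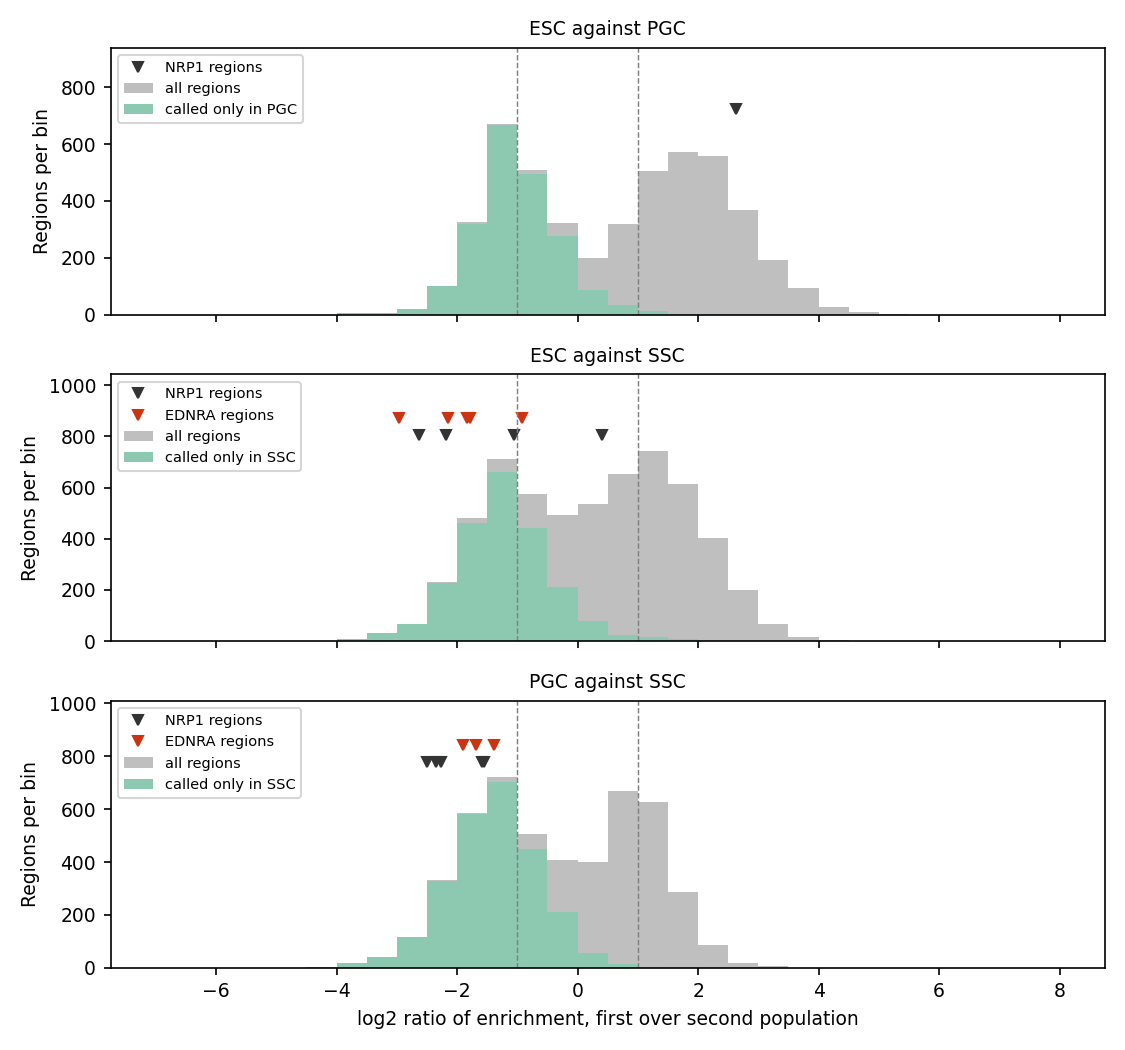
Number of regions per 0.5-wide bin of the log2 enrichment ratio in each comparison, for all regions (grey) and those called only in the second population (green), with the NRP1 (black) and EDNRA (red) regions as triangles above; dashed lines mark 2-fold. In both comparisons with SSC the triangles lie over the green bars on the SSC side, except the NRP1 region over the start at 0.40 in ESC against SSC.

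Most members held more SSC IP reads than the median region called in SSC, in counts not scaled to width. Their SSC-called regions were 335 to 732 bp wide at NRP1 and 236 to 476 bp at EDNRA. Regions called only in SSC had median widths of 235.5 bp in ESC against SSC and 237 bp in PGC against SSC. The part of width in the read counts was not tested. Among SSC-called regions of ESC against SSC, the SSC IP counts of the 8 SSC-only members lay between percentiles 49.1 and 95.1, and in PGC against SSC between percentiles 62.4 and 97.4. Their SSC enrichment was less uniform, between percentiles 39.3 and 99.8 and between percentiles 19.0 and 96.0. Few genes had as many SSC-called regions. The shares below are over all listed symbols, many without an SSC call. At least 1 SSC-called region was held by 1257 of 2593 symbols in ESC against SSC and 1214 of 2065 in PGC against SSC. In ESC against SSC, 25 of 2593 gene symbols (0.964%) had at least 4, among them NRP1 with 4, and 10 (0.386%) had at least 5, among them EDNRA with 5. In PGC against SSC, 13 of 2065 symbols (0.63%) had at least 5, among them NRP1, and 58 (2.81%) had at least 3, among them EDNRA. Such counts depend on how the peak caller split or joined neighbouring signal.

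Adding up the reads of regions that both comparisons with SSC list gives a value in all 3 populations with a narrower interval. At both genes these regions were all called in SSC, and the genes were chosen by ratios from these libraries. A high SSC value was therefore favoured by the choice, and the sums only describe its size. Over 4 NRP1 regions (2060 bp), the IP reads were 151 in SSC, 88 in ESC and 49 in PGC, and the input reads were 29, 26 and 47. This is 3.83 RPM per kb in the SSC IP, 1.64 in the ESC IP and 1.18 in the PGC IP. Enrichment, here without the added read, was 6.44 in SSC (4.33 to 9.58), 2.60 in ESC (1.68 to 4.02) and 1.29 in PGC (0.862 to 1.92). SSC was the highest and PGC the lowest, and the interval of each of the 3 log2 ratios excluded 0, with -1.31 (-2.16 to -0.46) for ESC over SSC, -2.32 (-3.14 to -1.51) for PGC over SSC and 1.01 (0.16 to 1.87) for ESC over PGC. From the IP libraries alone they were -1.22, -1.70 and 0.48.

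Over the 2 EDNRA regions that both comparisons list (908 bp), the IP reads were 60 in SSC, 32 in ESC and 21 in PGC, and the input reads were 17, 23 and 22. In RPM per kb this is 3.45 for the SSC IP, 1.35 for the ESC IP and 1.14 for the PGC IP. Enrichment was 4.36 in SSC (2.55 to 7.48), 1.07 in ESC (0.624 to 1.82) and 1.18 in PGC (0.648 to 2.14). ESC and PGC were not told apart at this depth, with a log2 ratio of -0.14 (-1.30 to 1.02), while ESC over SSC was -2.03 (-3.13 to -0.94) and PGC over SSC was -1.89 (-3.05 to -0.73). From the IP libraries alone these 3 were 0.24, -1.35 and -1.59. Both SSC comparisons use the same SSC libraries, so they are not independent of each other.

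**Figure D4:**
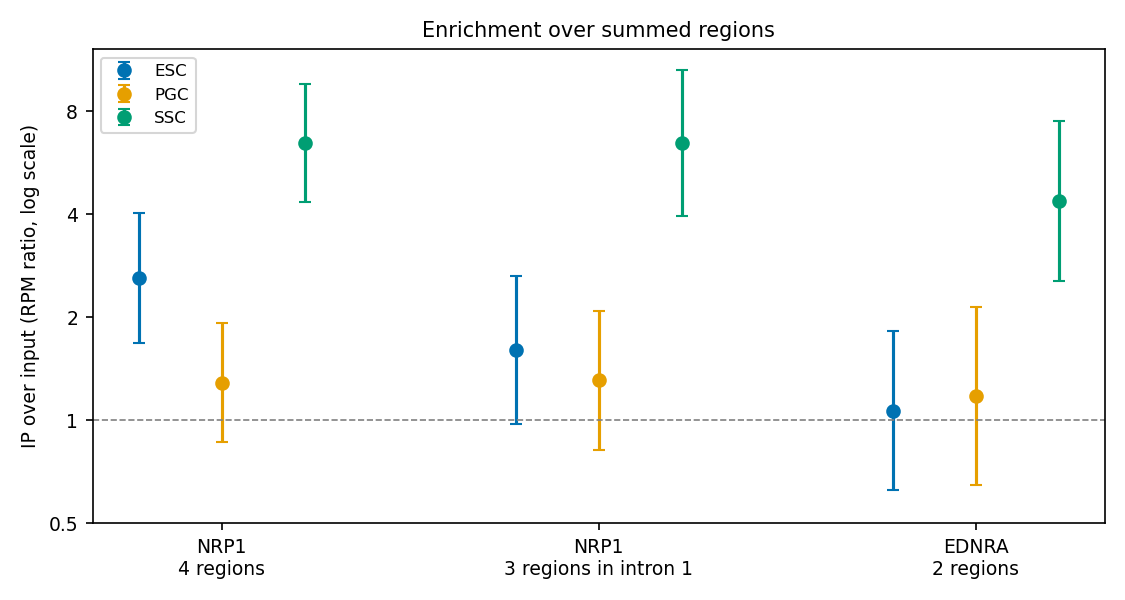
Enrichment of IP over input (ratio of RPM, log scale) over the summed reads of regions listed in both comparisons with SSC, for NRP1 with all 4 regions, NRP1 with the 3 regions in intron 1, and EDNRA with 2 regions; each point rests on 1 IP and 1 input library and has a 95% counting interval and the dashed line marks 1. All of these regions were called in SSC. SSC lies at 6.44, 6.44 and 4.36, PGC between 1.18 and 1.31, and ESC falls from 2.60 to 1.60 at NRP1 when the region over the start is left out.

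The start and the intron of NRP1 differed in the ESC libraries. Leaving out the region over the start moved the summed log2 ratio of ESC over SSC from -1.31 to -2.01 (-3.02 to -1.002), and that of ESC over PGC from 1.01 to 0.29 (-0.69 to 1.28). The ratio of ESC over SSC was higher over the start than over the 3 intron regions by 2.68 on the log2 scale (0.48 to 4.88). From the IP libraries alone this difference was 0.67 (-0.11 to 1.44), and it no longer excluded 0. For ESC over PGC the start exceeded the intron by 2.76 (0.51 to 5.01), and by 1.21 (0.11 to 2.30) from the IP libraries alone. The ESC input over the start, 0.274 RPM per kb, was the lowest ESC input value at NRP1, and its part in the difference was not tested beyond the comparison of IP libraries. For PGC over SSC the start and the intron did not differ detectably, by -0.08 (-1.85 to 1.69). These contrasts were chosen after the values were seen.

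Few partners of NRP1 were listed, several by regions many kb from their starts. Each gene has 1 value, from its region nearest the start. Of 30 neuropilin, semaphorin and VEGF genes, 7 were listed in ESC against SSC. Past 2-fold, 0 of these favoured ESC and 4 favoured SSC, beside 39.5% and 22.8% of all 2593 genes. These 4 were called only in SSC, a set in which 65.2% of regions were at least 2-fold higher there. The median log2 ratio of the 7 was -1.01 (NRP1 included, at 0.40), beside 0.59 over all genes. NRP2, the other neuropilin, had -1.52 (-3.46 to 0.41) at a region centred at -9278 bp from its start, and GIPC2, of the adaptor family that binds the neuropilin tail, had -1.34 (-3.07 to 0.40) at 9297 bp. Neither interval excluded 0.

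In PGC against SSC, 6 of the 30 were listed, 1 at least 2-fold higher in PGC and 3 in SSC including NRP1 itself (1 and 2 of the other 5), beside 20.9% and 39.8% of all 2065 genes. The 3 on the SSC side were called only in SSC, a set in which 71.0% of regions were at least 2-fold higher there. VEGFA, the main vascular endothelial growth factor, had 27 SSC IP reads over 6 input reads, against 12 over 13 for PGC, at a region 1765 bp downstream of its start, a ratio of -2.11 (-3.73 to -0.49). The semaphorin receptor gene PLXNA4 had 1.18 (-1.15 to 3.50), at a region 90389 bp away. In ESC against PGC, 5 were listed, 2 higher in ESC and 1 in PGC, beside 53.1% and 20.3% of all 2270 genes. These were PLXNA1, another plexin, at 2.68 (0.32 to 5.05), NRP1 itself, and NRP2 at -1.13 (-3.26 to 1.01) through a region 23768 bp from its start.

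Of 24 endothelin pathway genes, 10 were listed in PGC against SSC. At least 2-fold higher in SSC were 6, including EDNRA itself (5 of the other 9), and 1 was in PGC, beside 39.8% and 20.9% of all genes. Of regions called only in SSC, as 6 of the 10 were, 71.0% were at least 2-fold higher in SSC. PLCB4, among those higher in SSC at -1.04 (-3.58 to 1.49), was called in PGC. It had 16 PGC IP reads over 9 input reads, against 6 over 1 for SSC. The median was -1.22, beside a median of -0.49 over all genes. The interval excluded no difference for EDNRA alone among the 10. GNAQ, a G protein subunit through which the receptor signals, had -2.45 (-5.02 to 0.12), and ARHGEF12, a guanine nucleotide exchange factor, had -2.23 (-4.76 to 0.31). The ligand gene EDN1 had 1.47 (-0.29 to 3.23) at a region centred at -56727 bp from its start, and the other receptor gene EDNRB had 0.71 (-1.26 to 2.67) at -91740 bp from its own. EDN2, another ligand gene, lay on the SSC side with -2.17 (-4.37 to 0.02), at -12957 bp from its start. In ESC against SSC, 3 of the 24 were listed, with EDNRA on the SSC side and DLX5, a homeobox gene downstream of the receptor in the jaw, at 1.05 (-2.07 to 4.17) on the ESC side. In ESC against PGC only PLCB4 was listed, at -0.72 (-2.47 to 1.02).

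Other guidance genes did not run in a single direction, and nor did all genes. Of 36, 7 were listed in ESC against SSC, with 4 past 2-fold in favour of ESC and 0 in favour of SSC. Of all genes, 39.5% and 22.8% were. The 4 included EFNB2, an ephrin of arteries and neural crest, at 2.15 (1.28 to 3.02) and the secreted cue SLIT3 at 2.03 (0.70 to 3.36). In PGC against SSC, 9 were listed, 4 higher in SSC and 3 in PGC, beside 39.8% and 20.9% of all genes. SEMA7A, a membrane-anchored semaphorin, had -2.14 (-3.56 to -0.72), SEMA6A, a transmembrane one, had -2.07 (-4.20 to 0.05), UNC5D, a netrin receptor, had 1.62 (-0.50 to 3.75), and EFNB2 had 1.47 (-0.47 to 3.41) at a region 152598 bp away. In ESC against PGC, 10 were listed, 5 higher in ESC and 3 in PGC, beside 53.1% and 20.3% of all genes. On the ESC side were SEMA6A at 2.98 (1.30 to 4.66) and EFNA5, another ephrin, at 2.95 (1.16 to 4.73). On the PGC side were NEO1, a netrin receptor, at -2.20 (-4.33 to -0.06) and UNC5D at -1.25 (-3.13 to 0.62). Of 24 other vasoactive receptors, 0, 1 and 2 were listed for ESC against PGC, ESC against SSC, then PGC against SSC, and 0 were 2-fold apart.

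Markers of cells in which these receptors are known moved unequally beside them. Of 14 fibroblast, smooth muscle and pericyte genes, 4 were listed in ESC against SSC (COL1A2, COL5A1, LUM and PDGFRA). All 4 were at least 2-fold higher in SSC, beside 22.8% of all genes and 65.2% of regions called only in SSC, as these 4 were. Their IP levels summed to 3.34 RPM in ESC and 5.85 in SSC. In PGC against SSC, 3 were listed and 1 was at least 2-fold higher in SSC. That compares with 39.8% of all genes and 71.0% of regions called only in SSC, as these 3 were. The sums were 3.21 RPM in PGC and 5.12 in SSC. The 7 listed somatic gonad genes summed to 5.03 RPM in the ESC IP and 13.9 in the SSC IP. In PGC against SSC, 9 of the 13 were listed and 6 were at least 2-fold higher in SSC. Beside them stand 39.8% of all genes and 71.0% of regions called only in SSC, as 8 of the 9 were. The sums were 13.7 RPM in PGC and 39.4 in SSC. GATA4 and NR2F2 had the most reads, 396 and 161 in the SSC IP and 127 and 49 in the PGC IP. Of 14 germ cell genes, 2 were listed in ESC against SSC and 1 in PGC against SSC. SYCP3 had -2.08 (-4.20 to 0.03) and TDRD7 2.38 (-1.36 to 6.12) for ESC over SSC, and TDRD7 had 0.91 (-1.71 to 3.54) for PGC over SSC at another region. Of 11 endothelial genes, 1 was listed in ESC against SSC, TAL1, with a ratio of -0.15, and 1 in PGC against SSC, TIE1, with 0.58. In ESC against PGC, 2 of 2 listed fibroblast genes, 2 of 3 listed somatic gonad genes and TIE1 favoured PGC past 2-fold. The share was 20.3% of all genes and 55.0% of regions called only in PGC, as all of these were. All of their intervals included no difference. CDH5, PECAM1 and KDR of endothelium and ACTA2, TAGLN and MYH11 of smooth muscle had no listed region in any table. Whether cells of these kinds account for any of the NRP1 and EDNRA signal was not tested, and more marked cells cannot be told apart from more marking per cell.

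Within 200 kb of the member regions, 8 other regions were listed and they did not share one pattern. On the NRP1 side, the integrin gene ITGB1 had 2 regions near its start that were called in ESC and not in SSC, with 25 and 20 ESC IP reads, against 8 and 10 for SSC. Their ratios of ESC over PGC were 1.60 (-1.04 to 4.24) and 1.34 (-0.76 to 3.44). For ESC over SSC the interval of the first, -4.50 to 2.19, rests on 0 SSC input reads, and the second had -0.17 (-2.57 to 2.23). A region called in SSC, 135.4 kb upstream and assigned to uc_338, had -2.10 (-4.09 to -0.11) for ESC over SSC and -1.64 (-3.55 to 0.27) for PGC over SSC.

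On the EDNRA side, a region at the start of ARHGAP10 was called in ESC with 38 IP reads over 2 input reads, against 13 over 8 for SSC and 11 over 9 for PGC. It had 2.37 (0.29 to 4.45) for ESC over SSC and 2.75 (0.67 to 4.83) for ESC over PGC, the first opposite in sign to every EDNRA region 77.8 kb or more away. A second ARHGAP10 region, 16996 bp into the gene and called in PGC, had -0.72 (-2.61 to 1.18) for ESC over PGC. TMEM184C, the nearest listed gene, had a region 407 bp from its start called in ESC, at 0.31 (-1.82 to 2.44) for ESC over SSC and 2.16 (-0.03 to 4.35) for ESC over PGC. A second TMEM184C region 1713 bp into the gene was called in SSC, at -0.77 (-2.66 to 1.12) for ESC over SSC and -1.63 (-3.43 to 0.17) for PGC over SSC. The PGC-called region of TTC29, 90.4 kb before the EDNRA regions, had 0.28 (-1.71 to 2.27) for PGC over SSC.

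Among 2592 other gene symbols in ESC against SSC, the regions most like the deepest NRP1 region (649 bp downstream) over the 4 libraries belonged to MYLIP, a ubiquitin ligase that lowers the LDL receptor, OAF and the microRNA gga-mir-202. Their mean absolute differences in log2 RPM were 0.13, 0.17 and 0.19, and their log2 ratios were -1.66 (-3.01 to -0.30), -1.62 (-2.94 to -0.30) and -2.003 (-3.33 to -0.68). The regions most like the deepest EDNRA region (1064 bp downstream) belonged to MEOX2, a homeobox gene of mesoderm, CAPN6, of the calpain family, and ARHGAP31, with differences of 0.07, 0.10 and 0.11. Their ratios were -1.56 (-2.97 to -0.16), -2.24 (-3.65 to -0.82) and -1.76 (-3.10 to -0.42). The matching used the levels of these same 4 libraries, so ratios on the SSC side follow from it. All 6 lay between 343 and 1696 bp downstream of a start, and how often other SSC-called regions do was not computed.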

How the data were processed

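Per the submitters' processing notes, CASAVA 1.8, FastQC, BWA and MACS2 were used with the genome build galGal4; other versions, settings, the counting step and the base of the coordinates are not given in the sources used here. The authors deposited 1 table per pair of populations with a read count per region and library. The deposited RPM equals the count plus 1 over a library total that is the same at every region. As deposited, a fold enrichment divides IP RPM by input RPM, and the deposited log2 value compares the enrichments of both populations. The deposited table gives a signed distance to the closest start and a peak call for each population, and no p or q value.

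Repeats of a region (90, 152 and 55 in the 3 tables) were collapsed. Log2 ratios recomputed from the deposited RPM differed from the deposited ones by at most 5.33e-15. Intervals are delta-method 95% intervals on the 4 counts and exact Clopper-Pearson intervals for shares; they cover counting error only. Locus sums used plain counts. The calculation was tested on simulated counts in Python 3.11.15 with pandas 2.3.3 and scipy 1.17.1. Members, gene lists and rules were chosen with earlier results of these data known. Named genes were both members, every region within 200 kb of them, the 3 likest regions of other symbols in log2 RPM over 4 libraries, and up to 2 genes per list, comparison and direction at 2-fold or more. EDN2, EDNRB, PLCB4 and the markers were named outside this rule. Gene names are those of the authors' tables.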

Additional observations from a re-analysis of the deposited data

How the results depend on the processing

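The 18 member log2 ratios gave 72 values under 4 alternatives (5 reads added, no inputs, centring on the median, inputs under 3 reads set to 3). All 72 lay within the counting interval of the reported value, and 0 of the ratios past 2-fold changed sign. The alternatives reused the same counts and the intervals are wide, so this is easily met and does not show stable ratios. At NRP1 in ESC against PGC, 2.63 (0.11 to 5.16) became 0.96 without inputs. At 4-fold, members apart fell to 4 in ESC against SSC and 3 in PGC against SSC, and all regions apart to 1377 between ESC and PGC, 1033 between ESC and SSC, and 626 between PGC and SSC, by construction of the higher threshold. Without inputs, 0 members were apart in ESC against PGC. Requiring enrichment of at least 4 in the higher population left 5 members and 1391 regions in PGC against SSC, and adding 5 reads left 1698 regions there; the cause was not tested for the latter. Shared member regions numbered 7 at 1 bp of overlap and 6 at a reciprocal overlap of 0.5. Pathway gene values 2-fold apart numbered 39 over all comparisons, and 47 with each gene's largest ratio, a gene being counted again in each comparison. Inputs of 0 to 20 reads per member region limit every enrichment. No paired analysis was possible because each group has 1 library.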
